A study of Mus musculus with 10 samples.

Results

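Fgf15, the genes of 3 fibroblast growth factor (FGF) receptors and 6 genes that FGF signalling is known to switch on were followed in sorted cortical cells that lacked Cdkn1c. The 10 genes are Fgf15, Fgfr1, Fgfr2, Fgfr3, Spry1, Spry2, Spry4, Etv4, Etv5 and Dusp6, out of 53379 genes in the count files, and each was found by its Ensembl identifier. They were chosen on the rise of Fgf15 in the comparison described here, so their differences between genotypes are descriptions, given without p-values, and nothing is read from whether a member was called. The libraries held 3 cKO and 7 control embryos at embryonic day 16 (E16).

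The cKO embryos (cKO-Cdkn1c-MADM-7) carried a floxed Cdkn1c allele together with each of their MADM cassettes on chromosome 7, and the controls (MADM-7) carried the cassettes alone. Both groups carried Emx1-Cre, which acts in dorsal telencephalic progenitors and their progeny, on a mixed C57BL/6J and CD1 background. MADM (mosaic analysis with double markers) labels cells green, red or yellow through Cre-driven exchange between the cassettes. Cells of every colour from 1 dissected neocortex were pooled into 1 library of 400 cells, so colours cannot be compared. Each library was a single embryo. In pooled cells, more cells of a type and more RNA per cell cannot be told apart.

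FGF ligands bind receptor tyrosine kinases with heparan sulfate as a cofactor, and the receptors start the Ras to ERK kinase cascade. ERK activity raises transcription factors of the PEA3 group (Etv4, Etv5) and also inhibitors of the same cascade, the Sprouty proteins and the phosphatase Dusp6, so that these genes are widely used as readouts of FGF signalling. In the embryonic forebrain FGF signalling patterns the cortex and influences the balance between progenitor expansion and neurogenesis. Fgf15 is the mouse counterpart of human FGF19, an endocrine ligand in the adult and a locally acting one in the embryonic brain.

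Reads counted on genes ran from 1738220 to 3362487 per library, and levels are given as CPM, read counts scaled to library depth. Cdkn1c fell from 95.9 ± 20.1 CPM in controls (SD, n = 7) to 7.46 ± 3.43 CPM in cKO (SD, n = 3), a log2 fold change of -3.66 (SE 0.31, edgeR adjusted p = 3.68e-06), with every cKO library below every control. Markers of cortical cells were present: radial glia markers summed to between 1480 and 2712 CPM in cKO and between 1636 and 2660 CPM in controls. Of 12 projection neuron markers, 4 were called lower and none higher, where 0.883% of all 11551 genes tested were lower and 2.27% higher, and their summed level ran from 2707 to 2845 CPM in cKO against 3935 to 4790 CPM in controls. The share of uniquely aligned reads outside genes separated the libraries into 5 between 5.47% and 8.64% (cKO replicate 3, control replicates 1, 2, 6 and 7) and 5 between 12.8% and 16.7%. Values within these 2 sets are given for Fgf15, the Sprouty and PEA3 group genes and Dusp5. Microglia and blood markers, led by haemoglobin genes, summed to 1942 CPM in cKO replicate 1, 1142 CPM in control replicate 2 and 1382 CPM in control replicate 5, and to between 1.77 and 57.7 CPM in the other libraries. Of the 8 genes of that list 3 were tested and none passed the edgeR threshold.

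Fgf15 was the ligand whose rise led to this gene list. It lies on chr7:144896531-144900953 (GRCm38, plus strand), 1.44 Mbp from Cdkn1c on the same chromosome. With DESeq2, another test for counts, the paper reported no significant change in genes flanking Cdkn1c, in a window reaching past this distance. DESeq2 as run here did not call Fgf15 either (log2 fold change 2.92, SE 1.45). The coding parts of the 3 exons of transcript Fgf15-201 are shown because antisense genes share part of them, which bears on how many reads could be counted. Capitals mark bases that also lie in an exon of Gm26793 (exons 1 and 2) or Gm39119 (exon 3), both annotated on the minus strand.
Fgf15 exon 1, coding part, chr7:144896679-144896931: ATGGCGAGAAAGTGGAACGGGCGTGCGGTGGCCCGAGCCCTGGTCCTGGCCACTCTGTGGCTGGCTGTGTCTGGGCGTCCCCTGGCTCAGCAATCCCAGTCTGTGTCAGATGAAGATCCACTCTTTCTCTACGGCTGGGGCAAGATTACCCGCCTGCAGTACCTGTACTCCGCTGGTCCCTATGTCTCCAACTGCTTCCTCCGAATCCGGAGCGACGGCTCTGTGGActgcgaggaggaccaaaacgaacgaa
Fgf15 exon 2, coding part, chr7:144897116-144897219: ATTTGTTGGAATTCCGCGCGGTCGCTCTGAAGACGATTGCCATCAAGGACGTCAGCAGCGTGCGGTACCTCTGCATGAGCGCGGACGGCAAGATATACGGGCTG
Fgf15 exon 3, coding part, chr7:144899649-144899945: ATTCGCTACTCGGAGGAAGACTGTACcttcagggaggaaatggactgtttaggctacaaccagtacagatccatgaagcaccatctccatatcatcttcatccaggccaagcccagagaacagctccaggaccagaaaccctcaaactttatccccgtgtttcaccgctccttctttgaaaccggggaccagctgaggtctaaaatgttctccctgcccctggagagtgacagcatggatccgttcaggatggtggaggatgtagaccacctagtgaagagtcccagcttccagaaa
Of the 654 coding bases, 357 (54.6%) were shared with an antisense exon. Over the whole transcript the share was 27.9%, since the long 3′ part of exon 3 is free of overlap.

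Fgf15 was at 13.2, 19.7 and 12.3 CPM in cKO replicates 1, 2 and 3 (39, 50 and 29 reads). In control replicates 1 to 7 it was at 5.81, 3.21, 0.294, 0, 0, 0 and 4.62 CPM (16, 9, 1, 0, 0, 0 and 13 reads). The cKO libraries all lay above the controls, and the controls divided into 3 with 9 or more reads and 4 with at most 1 read. A count of 0 at these depths allows up to between 0.973 and 1.75 CPM in control replicates 4, 5 and 6, from counting error only. The mean was 15.1 ± 4.05 CPM in cKO (SD, n = 3) and 1.99 ± 2.51 CPM in controls (SD, n = 7), a ratio of 7.56 and a log2 fold change of 2.87 (SE 0.58).

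Reads that fell on both a gene and its antisense partner were dropped from the column that ignores strand, so the count of Fgf15 is a minimum. The libraries were not stranded, with between 50.3% and 50.5% of stranded counts in the sense column. Summing both stranded columns gave 259 Fgf15 reads in place of 157. On that count the levels were 23.1 ± 7.77 CPM in cKO (SD, n = 3) and 3.07 ± 3.72 CPM in controls (SD, n = 7), and reads of the antisense genes enter it as well. The antisense gene Gm26793 itself was not higher in cKO: its mean was 1.12 ± 0.66 CPM in cKO (SD, n = 3) and 3.95 ± 2.38 CPM in controls (SD, n = 7), from 88 reads in all, too few for the test.

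**Figure D1:**
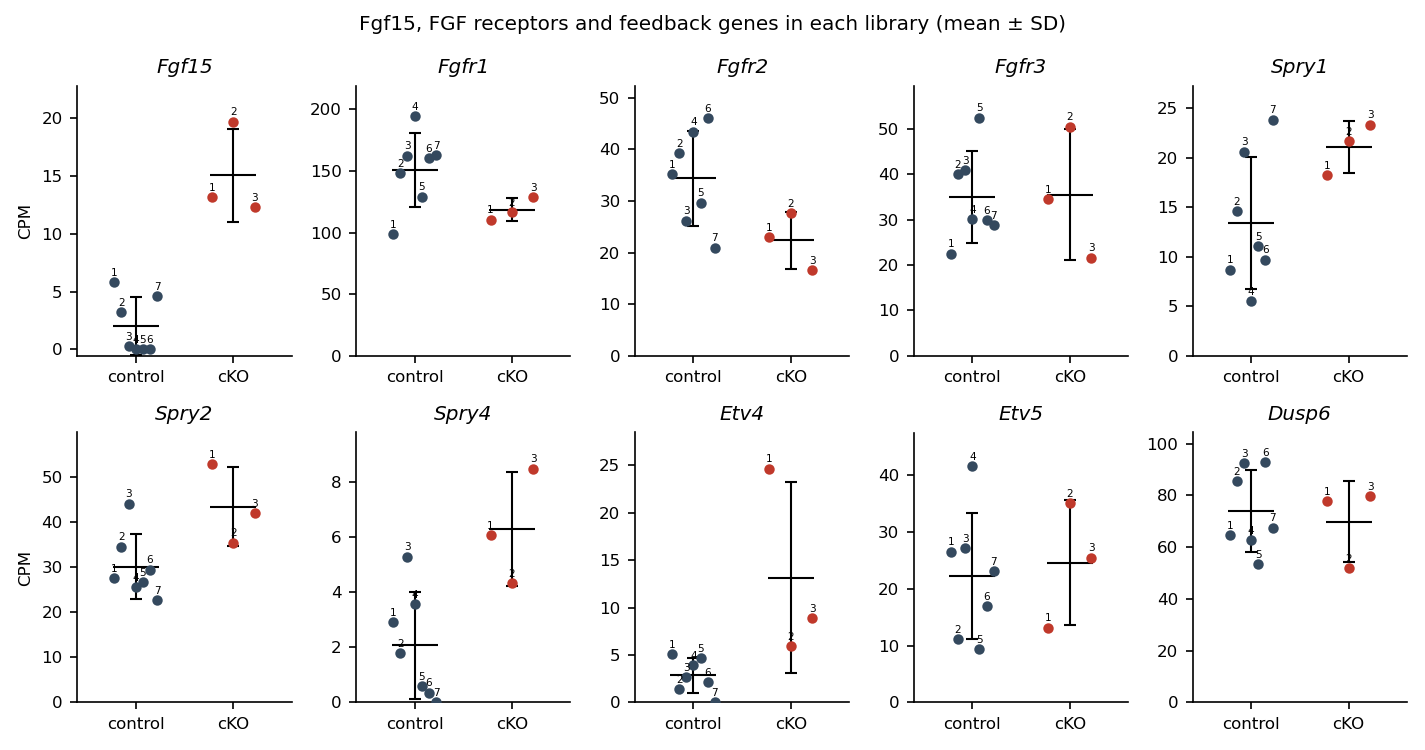
CPM of the 10 genes in each library, with control libraries in dark blue and cKO libraries in red. Numbers are replicate numbers and bars are mean ± SD (n = 7 and 3). For Fgf15 and Etv4 each cKO point lies above each control point, whereas for the other 8 genes the groups overlap.

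The 3 receptor genes did not share a direction. Fgfr1, the most abundant of them, was at 111, 117 and 129 CPM in cKO replicates 1, 2 and 3, and control values ran from 98.7 through a median of 160.4 to 194 CPM. Of the 7 controls, 6 lay above every cKO library. The means of Fgfr1 were 119 ± 9.13 and 151 ± 30.1 CPM (SD, n = 3 and 7), a log2 fold change of -0.36 (SE 0.18).

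Fgfr2 was at 22.9, 27.6 and 16.5 CPM in cKO replicates 1, 2 and 3, while the controls ran from 20.98 through 35.2 to 46.0 CPM. Control replicates 3 and 7 reached down into the cKO range. Its means were 22.4 ± 5.54 and 34.4 ± 9.23 CPM (SD, n = 3 and 7), with a log2 fold change of -0.62 (SE 0.28). The annotation used here draws Fgfr2 from 130162451 to 133123350 on chromosome 7, through read-through models across many other genes. Its exon length and its level per kilobase are thus uncertain.

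Fgfr3, a receptor typical of ventricular zone progenitors, was at 34.4, 50.4 and 21.6 CPM in cKO replicates 1, 2 and 3. Its controls ran from 22.5 through 30.2 to 52.4 CPM and covered most of the cKO range. The means of Fgfr3 were 35.5 ± 14.4 and 34.9 ± 10.1 CPM (SD, n = 3 and 7), a log2 fold change of 0.05 (SE 0.28), and its sign turned when single libraries were left out (from -0.28 to 0.29).

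The Sprouty genes encode feedback inhibitors of receptor tyrosine kinase signalling. Spry1 was at 18.2, 21.7 and 23.3 CPM in cKO replicates 1, 2 and 3, against 8.71, 14.6, 20.6, 5.51, 11.1, 9.71 and 23.8 CPM in control replicates 1 to 7. The cKO values sat in the upper part of the control range, with control replicate 7 above all of them. The log2 fold change of Spry1 was 0.62 (SE 0.36), from means of 21.1 ± 2.61 and 13.4 ± 6.65 CPM (SD, n = 3 and 7).

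Spry2 was at 53.0, 35.5 and 42.0 CPM in cKO replicates 1, 2 and 3, with controls from 22.8 through 27.6 to 44.1 CPM. Control replicate 3 was the single control inside the cKO range. The means of Spry2 were 43.5 ± 8.84 and 30.1 ± 7.18 CPM (SD, n = 3 and 7), a log2 fold change of 0.52 (SE 0.23).

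Spry4 had too few reads to be tested, with a mean of 9.3 reads over the 10 libraries. It had 18, 11 and 20 reads in cKO replicates 1, 2 and 3 and 8, 5, 18, 11, 1, 1 and 0 reads in control replicates 1 to 7. Scaled to depth this was 6.30 ± 2.09 CPM in cKO (SD, n = 3) and 2.07 ± 1.95 CPM in controls (SD, n = 7), and 2 of the 3 cKO libraries lay above every control. All 3 Sprouty genes thus had higher means in cKO, while each overlapped the controls.

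Etv4 and Etv5, the PEA3 group factors measured here, parted. Etv4 was at 24.6, 5.91 and 8.91 CPM in cKO replicates 1, 2 and 3 (73, 15 and 21 reads) and at 5.08, 1.43, 2.65, 3.89, 4.66, 2.16 and 0 CPM in control replicates 1 to 7. All cKO values lay above the controls, but replicate 2 exceeded the highest control by under 1 CPM, and replicate 1 held 73 of the 109 Etv4 reads in cKO. The means were 13.1 ± 10.1 and 2.84 ± 1.83 CPM (SD, n = 3 and 7), a ratio of 4.63 and a log2 fold change of 2.30 (SE 0.53). Without cKO replicate 1 Etv4 fell under the minimum of 10 mean reads and could not be fitted. In the other libraries with much haemoglobin, control replicates 2 and 5, Etv4 was at 1.43 and 4.66 CPM, and the part of blood cells in its level was not tested.

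Etv5 was at 13.2, 35.1 and 25.5 CPM in cKO replicates 1, 2 and 3, and at 26.5, 11.1, 27.1, 41.5, 9.32, 16.9 and 23.1 CPM in control replicates 1 to 7. The cKO values lay within the control range. In the cKO library with the most Etv4, replicate 1, Etv5 was at its lowest cKO value. The means of Etv5 were 24.6 ± 11.0 and 22.2 ± 11.1 CPM (SD, n = 3 and 7), with a log2 fold change of 0.07 (SE 0.39).

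Dusp6, the cytoplasmic ERK phosphatase, was at 77.9, 52.0 and 79.8 CPM in cKO replicates 1, 2 and 3. The controls ran from 53.6 through 67.6 to 92.8 CPM, with 1 cKO library just below them and the others inside. The means of Dusp6 were 69.9 ± 15.5 and 74.2 ± 15.8 CPM (SD, n = 3 and 7), a log2 fold change of -0.10 (SE 0.21). The groups differed by less than the spread between replicates.

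Of the 9 genes tested, 2 (Fgf15 and Etv4) passed the edgeR threshold, both higher, beside 3.15% of all 11551 genes tested (2.27% higher and 0.883% lower), and 7 did not. Among the 8 tested besides Fgf15, 1 passed. In these 2 all cKO libraries lay above all controls, as in 3.32% of all genes tested. Because the comparison chose Fgf15, nothing is read from these counts. Fgf15 and Etv4 had a mean below 10 reads in controls, so they entered the test only through their cKO libraries and had to differ. The median log2 fold change of the 9 genes was 0.07, and that of all genes tested was 0.01.

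The levels of Fgf15 and Etv4 within the 2 sets of libraries with like shares of reads outside genes are given as values only, since every cKO library lay above every control and any split of the libraries gives the same direction. In the set with the smaller share, Fgf15 was at 12.3 CPM in the 1 cKO library and at a mean of 3.41 CPM in 4 controls. In the set with the larger share it was at a mean of 16.4 CPM in 2 cKO libraries and 0.0981 CPM in 3 controls. Those 3 controls held 1 Fgf15 read in all, below what the depth can resolve, and the other set held a single cKO library, so the sizes of the 2 differences are not compared. The 3 controls with 9 or more Fgf15 reads had the smaller share, as did control replicate 6, which had 0.

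Etv4 was at 8.91 CPM against 2.17 CPM in the set with the smaller share, and at 15.3 CPM against 3.73 CPM in the other. The first rested on 1 cKO library and the second on cKO values of 24.6 and 5.91 CPM, the lower of which lay near the highest control of its set (4.66 CPM). The 3 Sprouty genes had higher cKO means in both sets, which reuse the libraries that gave the higher means and are no independent repeat. The smaller share again held 1 cKO library, in which Spry1 lay below the highest control (23.8 CPM). In the larger share the cKO and control ranges of each Sprouty gene overlapped. Spry2 was at 42.0 against 28.6 CPM and 44.2 against 32.2 CPM, Spry1 at 23.3 against 14.2 CPM and 19.9 against 12.4 CPM, and Spry4 at 8.49 against 1.26 CPM and 5.20 against 3.15 CPM, with the smaller share first. Etv5 changed direction between the sets, at 25.5 against 19.4 CPM and 24.1 against 26.0 CPM.

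**Figure D2:**
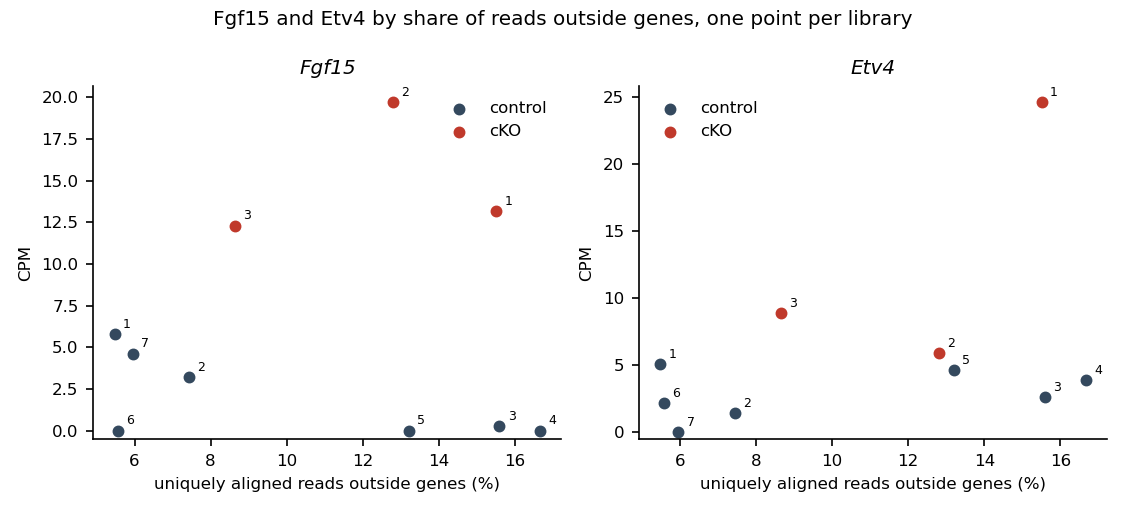
CPM of Fgf15 and Etv4 (vertical axes) against the percentage of uniquely aligned reads outside genes (horizontal axes), with 1 point per library, labelled by replicate number. The cKO libraries (red) are above all controls for both genes at any share. The controls with a larger share held 1 Fgf15 read in all, and 1 control with a smaller share (replicate 6) held 0.

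Levels between genes are compared as CPM per kilobase of annotated exon. The low places of Fgf15 and Etv4 in controls are not independent of the rise in cKO that chose the genes, and the order is a description. In controls Dusp6 was highest at 23.7 ± 5.06, followed by Fgfr1 at 15.3 ± 3.05 and Spry2 at 14.4 ± 3.44 CPM per kb (SD, n = 7). Dusp6 lay above Fgfr1 in 7 of 7 controls, whereas Fgfr1 lay above Spry2 in 4 of 7, a difference within their spread. A middle group held Etv5 at 5.41 ± 2.70, Fgfr3 at 4.88 ± 1.41, Spry1 at 4.62 ± 2.29 and Fgfr2 at 3.33 ± 0.893 CPM per kb (SD, n = 7), and no neighbours in it differed by more than their SDs. Etv4 at 0.914 ± 0.588, Fgf15 at 0.651 ± 0.820 and Spry4 at 0.435 ± 0.410 CPM per kb (SD, n = 7) formed the lowest group, again without a clear order among them.

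Spry2 exceeded Etv5, and Fgfr2 exceeded Etv4, in 7 of 7 controls. In cKO Fgf15 stood at 4.92 ± 1.32, Etv4 at 4.24 ± 3.24 and Fgfr3 at 4.96 ± 2.02 CPM per kb (SD, n = 3). The Fgf15 level is a minimum, since reads shared with antisense genes were dropped while the shared bases stayed in the length. Etv4 ran from 1.90 to 7.93 CPM per kb in cKO, with its highest value in replicate 1. No likeness between these genes is read from the means.

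**Figure D3:**
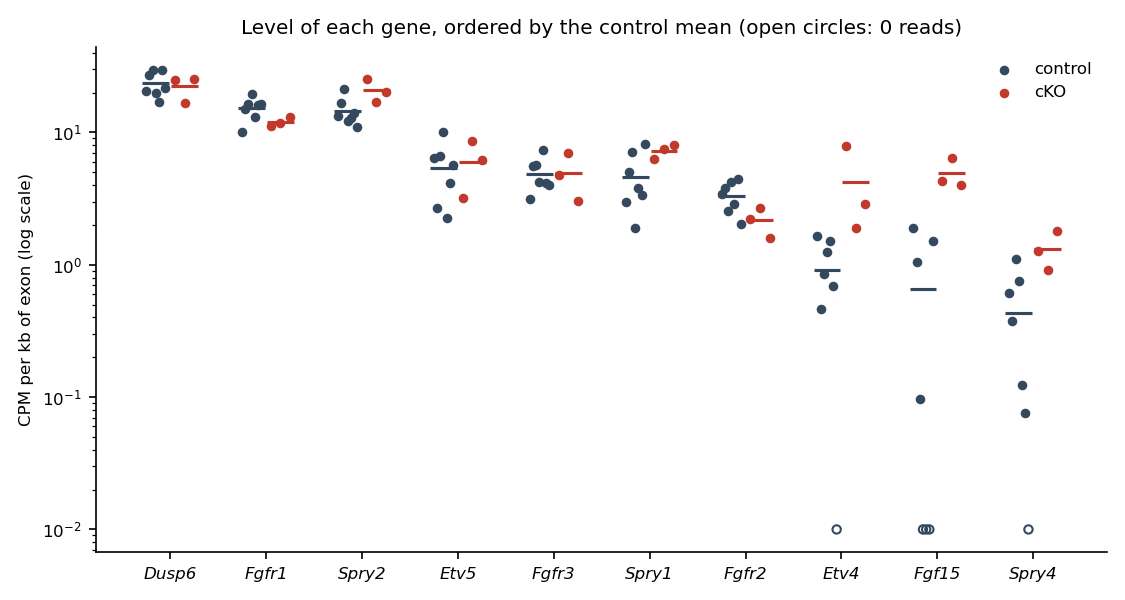
CPM per kb of exon (log axis) of the 10 genes in control (dark blue) and cKO (red) libraries, ordered by the control mean. Horizontal lines are group means and open circles at the bottom are libraries with 0 reads. Dusp6, Fgfr1 and Spry2 are highest in controls, and Etv4, Fgf15 and Spry4 lowest.

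Whether the genes moved together was examined within the 7 controls, so the difference between genotypes does not enter the values. Fgf15 and Etv4, with means of 5.57 and 7.57 reads in controls, reached the minimum of 10 only through cKO. Their pairs thus rest on few reads. None of the 36 pairs among the 9 tested genes was correlated after Benjamini-Hochberg adjustment (exact permutation test, two-sided), and 1 had an unadjusted p under 0.05. That pair was Fgfr2 and Spry1, with Pearson's r = -0.80 (exact permutation p = 0.0319, adjusted p = 0.838) and Spearman's rho = -0.75 (exact permutation p = 0.0663, adjusted p = 1) over 7 controls. Without the 2 libraries farthest from the Fgfr2 median r was -0.34. Leaving out the extreme values narrows the range of Fgfr2, so this drop cannot show whether the relation rested on those libraries. With 7 libraries and adjustment over 36 pairs, even r = -0.80 did not pass, so strong relations could also be missed. Several controls were at 0 for Fgf15, which limits its pairs further. The lack of calls does not show that the genes moved apart.

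By the pattern of log2 CPM over the 10 libraries, the genes most like Fgf15 among 11550 others were Usp46 (Pearson's r = 0.93), Dcn (0.90), Egr3 (0.90), Hmox1 (0.90) and Scg2 (0.90). Over the 7 controls alone they were Ears2 (0.98), Xpa (0.97), Fam71e1 (0.96), Atraid (0.96) and Mtfp1 (0.95), none of them in the first group. Of the feedback genes Spry1 came closest over 10 libraries (r = 0.61, place 487 of 11550), and Spry2 stood at r = 0.42, Etv4 at 0.36 and Dusp6 at -0.17. Within the 7 controls these fell to 0.37 for Spry1 (place 2540), -0.19 for Spry2 and -0.43 for Etv4, with Dusp6 at -0.04. The values over 10 libraries carry the genotype difference that chose Fgf15, and all are descriptions.

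The other genes of the pathway were taken from 5 lists of 104 genes, of which 75 were tested. In all, 2 rose and 3 fell (6.67% called, against 3.15% of all genes tested), and 70 did not pass the threshold. Of those that rose, Dusp5 entered the test only through its cKO libraries. The median log2 fold change of the 75 was 0.05, against 0.01 over all genes tested.

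Of 21 other FGF ligand genes, 6 were tested and none passed the edgeR threshold. Fgf9, which is expressed by neurons and glia, was at 9.44, 5.91 and 8.49 CPM in cKO replicates 1, 2 and 3 and at no more than 4.62 CPM in any control. Its log2 fold change was 1.73 (SE 0.51, edgeR adjusted p = 0.0774), and it was outside the rule for naming genes, chosen after its values were seen. With a mean of 6.57 reads in controls it reached the minimum of 10 only through the cKO libraries, so its difference could only point upward. The ligand genes with the highest level per kb were Fgf13, an intracellular FGF homologue of neurons, with a log2 fold change of 0.10 (SE 0.15, edgeR adjusted p = 0.796), and Fgf18, at -0.27 (SE 0.47, edgeR adjusted p = 0.840).

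Fgf21, an endocrine ligand related to Fgf15 and a known target of stress signalling, was also named after its values were seen. It had 6, 5 and 11 reads in cKO replicates 1, 2 and 3 and 0 reads in every control, too few for the test. Its cKO mean was 2.89 ± 1.54 CPM (SD, n = 3). A count of 0 allows up to between 0.883 and 1.75 CPM in a single control, from counting error only. Since the gene was chosen on these values, no size of the difference is given. The neighbouring ligand genes of Fgf15, Fgf3 and Fgf4, had 7 reads and 0 reads in all libraries together.

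Among receptor partners, 6 of 9 genes were tested, and Cdh2 fell while 5 did not pass. Cdh2 encodes N-cadherin, an adhesion molecule that can bind FGF receptors. It was at 78.9, 108 and 108 CPM in cKO replicates 1, 2 and 3, and its controls ran from 153 through 202 to 240 CPM. No cKO library reached the controls, and the log2 fold change was -0.99 (SE 0.17, edgeR adjusted p = 0.00297). Ncam1 and Flrt3, the partners with the highest levels per kb, had log2 fold changes of -0.17 (SE 0.15, edgeR adjusted p = 0.629) and -0.66 (SE 0.23, edgeR adjusted p = 0.140).

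Among the heparan sulfate genes, which make and trim the cofactor of FGF binding, 20 of 25 were tested, and 1 fell and 1 rose. Hs6st2, a 6-O-sulfotransferase, was at 15.2, 30.7 and 31.8 CPM in cKO replicates 1, 2 and 3, and its controls ran from 70.1 through 106 to 154 CPM. Every cKO library lay far below every control (log2 fold change -2.06, SE 0.28, edgeR adjusted p = 0.000326).

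Sulf2, which removes 6-O-sulfates outside the cell, was at 26.6, 20.1 and 24.6 CPM in cKO replicates 1, 2 and 3. Control replicate 7 was at 17.8 CPM and the other controls at no more than 7.46 CPM. The log2 fold change of Sulf2 was 1.73 (SE 0.37, edgeR adjusted p = 0.0147), and the call was lost without cKO replicate 1 (edgeR adjusted p = 0.0551) or replicate 3 (edgeR adjusted p = 0.0525). Hs3st1 and Gpc4, the genes of the list with the highest levels per kb, had log2 fold changes of -0.42 (SE 0.18, edgeR adjusted p = 0.257) and -0.82 (SE 0.23, edgeR adjusted p = 0.0666).

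None of the 24 tested genes of the adaptors and the ERK cascade passed the edgeR threshold. Mapk3, which encodes ERK1, had a log2 fold change of 0.23 (SE 0.18, edgeR adjusted p = 0.582), and Nras had one of -0.37 (SE 0.20, edgeR adjusted p = 0.379). These are the 2 genes of that list with the highest levels per kb.

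Among other ERK feedback genes 19 of 23 were tested, and 1 rose and 1 fell. Dusp5, a nuclear ERK phosphatase, was at 34.7, 16.2 and 6.36 CPM in cKO replicates 1, 2 and 3 and between 1.77 and 6.89 CPM in controls. Replicate 3 lay within the control range, and the log2 fold change was 2.59 (SE 0.48, edgeR adjusted p = 0.00466). Without cKO replicate 1, which also had the most Etv4, the log2 fold change of Dusp5 was 1.79 (SE 0.50) and missed the threshold (edgeR adjusted p = 0.0690). Within the sets of like share outside genes it was 0.64 (SE 0.78) with the smaller share and 3.53 (SE 0.57) with the larger. Dusp5 had a mean of 9 reads in controls, below the minimum of 10, so its direction was fixed by the filter and the call is no support for a rise.

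Lzts1, a leucine zipper protein better known from the detachment of newborn neurons than as an ERK inhibitor, was at 180, 284 and 295 CPM in cKO replicates 1, 2 and 3. Its controls ran from 334 through 400.1 to 501 CPM. Its log2 fold change was -0.73 (SE 0.17, edgeR adjusted p = 0.0257), but the call was lost when cKO replicate 1 (edgeR adjusted p = 0.0985), control replicate 2 (edgeR adjusted p = 0.0502) or control replicate 7 (edgeR adjusted p = 0.0538) was left out. Pea15a, the other gene of high level per kb in this list, had a log2 fold change of -0.20 (SE 0.13, edgeR adjusted p = 0.488).

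**Figure D4:**
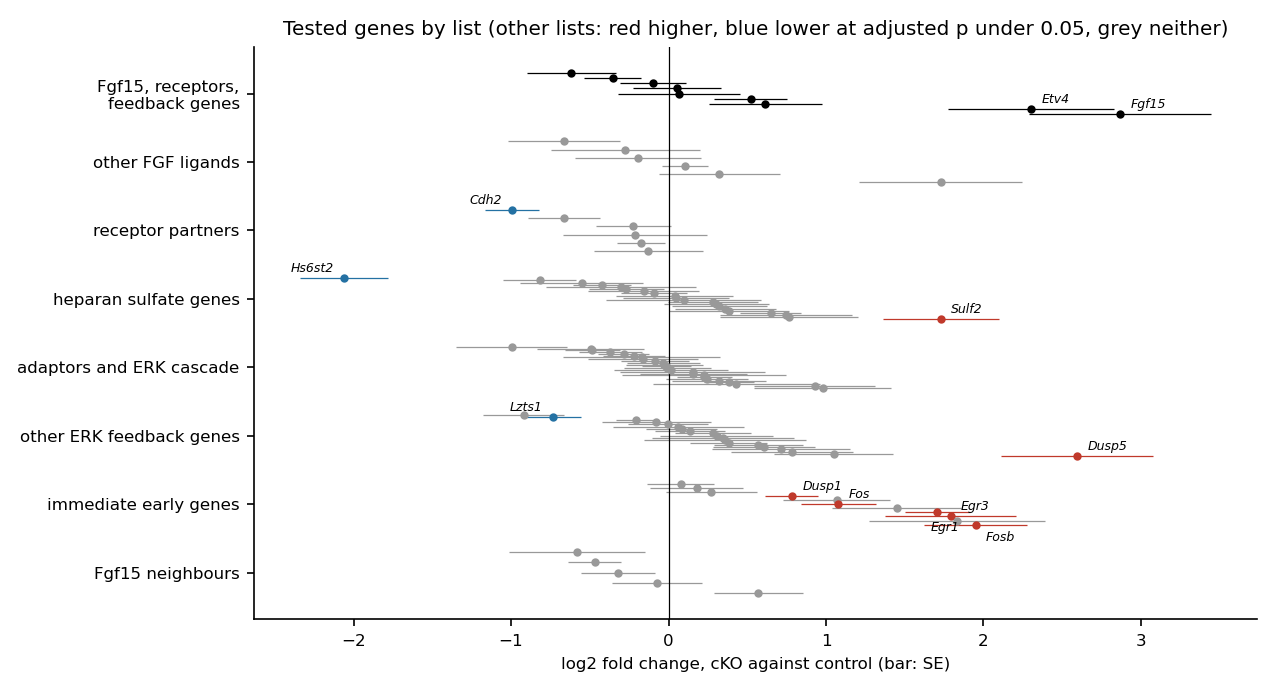
Log2 fold change of cKO against control with its SE for every tested gene of each list. Fgf15, the receptors and the feedback genes are in black, without a call, and in the other lists red marks genes called higher, blue genes called lower and grey the rest. Medians of the pathway lists run from -0.22 (receptor partners, 0 of 6 positive) to 0.31 (other ERK feedback genes, 14 of 19 positive). The immediate early genes lie to the right of 0.

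Of 14 immediate early genes, which respond to ERK activity and also to tissue dissociation, 11 were tested, 5 rose and none fell, where 2.27% of all genes tested were higher, and all 11 log2 fold changes were positive (median 1.08). Egr1 was at 192 ± 40.1 CPM in cKO (SD, n = 3) and 58.4 ± 18.0 CPM in controls (SD, n = 7), a log2 fold change of 1.71 (SE 0.20, edgeR adjusted p = 0.000113). Fosb, Egr3, Fos and Dusp1 rose by 1.95 (SE 0.33), 1.79 (SE 0.42), 1.08 (SE 0.24) and 0.78 (SE 0.17) on the log2 scale (edgeR adjusted p = 0.00215, 0.0213, 0.0173 and 0.0147). Egr3, with a mean of 7.43 reads in controls, and Arc, with 6.29, reached the minimum of 10 only through cKO, so their direction was fixed and the counts above are no support on their behalf. The number called was 2 without cKO replicate 3, 3 without cKO replicate 1 and 7 without cKO replicate 2, so it rested on single libraries. Within the sets of like share outside genes it was 0 (smaller share) and 2 (larger share), with 5 libraries in each. Their part in the values of Etv4, the Sprouty genes and Dusp5 was not tested.

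Markers of other cell types were measured in the same libraries. Of 10 Cajal-Retzius and cortical hem markers 7 were tested, 4 rose (Reln, Trp73, Lhx5 and Lhx1) and none fell, where 2.27% of all genes tested were higher and 0.883% lower, and none of the 10 was at 0. Their summed level ran from 399 to 473 CPM in cKO and from 14.4 to 148 CPM in controls. Reln, the secreted protein of Cajal-Retzius cells, had a log2 fold change of 2.71 (SE 0.41, edgeR adjusted p = 0.000949). Lhx1, with a mean of 3.29 reads in controls, entered the test only through cKO. The hem ligand genes Wnt3a and Wnt2b had 14 and 3 reads in all libraries together.

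Of 8 interneuron markers 6 were tested and 1 (Dlx2) rose, where 2.27% of all genes tested were higher, with a summed level from 39.8 to 109 CPM in cKO and from 14.6 to 53.0 CPM in controls, and none was at 0. Of 8 diencephalon markers, a region in which Fgf15 is known to be expressed, 4 were tested and none passed the edgeR threshold, with 3 of 4 log2 fold changes positive (median 0.54, against 0.01 over all genes tested). Lhx9 was at 40.5 to 51.3 CPM in cKO and 2.90 to 34.9 CPM in controls, without overlap (log2 fold change 0.92, SE 0.33, edgeR adjusted p = 0.164). The highest value, 1.38 (SE 0.58, edgeR adjusted p = 0.237), was that of Rora, which entered the test only through cKO. The summed level of the 8 genes was 330.2 to 416 CPM in cKO and 247 to 502 CPM in controls, but most of it came from Lhx2, which cortical progenitors also express, and Nkx2-1 was at 0 reads. Of 8 vascular markers 1 was tested and did not pass, and their summed level ran from 27.3 to 57.9 CPM in cKO and from 11.0 to 29.3 CPM in controls, which overlap. The sort kept labelled cells of the Emx1-Cre lineage from dissected neocortex, a gate meant to leave interneurons, diencephalic cells and vascular cells out. The part of any such cells in the level of Fgf15 was not tested.

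The genes around Fgf15 on chromosome 7 gave no call in either direction. Of 12 genes listed there 5 were tested under the symbols listed and none passed the edgeR threshold. LTO1, listed by its older symbol Oraov1 and 14.1 kb beyond Fgf15, was tested as well, with 28.5 ± 4.25 CPM in cKO (SD, n = 3), 33.8 ± 10.9 CPM in controls (SD, n = 7) and a log2 fold change of -0.24 (SE 0.28, edgeR adjusted p = 0.738). Ccnd1, which encodes cyclin D1 and lies 29.0 kb beyond Fgf15, was at 27.0 ± 4.83 CPM in cKO (SD, n = 3) and 18.1 ± 5.79 CPM in controls (SD, n = 7), a log2 fold change of 0.57 (SE 0.28, edgeR adjusted p = 0.332). Cttn, Fadd, Ppfia1 and Shank2 had log2 fold changes of -0.47 (SE 0.17), -0.58 (SE 0.43), -0.32 (SE 0.23) and -0.07 (SE 0.29), with edgeR adjusted p = 0.158, 0.564, 0.553 and 0.929.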

How the data were processed

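Poly A RNA of sorted cells was sequenced by Smart-Seq2 in 3 cKO and 7 control embryos. The deposited values are raw read counts per gene: the authors combined technical replicates, aligned reads to GRCm38 with STAR 2.5.0c after conversion with bedtools 2.26.0 (versions from the submitters' processing notes), kept single alignments and counted reads on Gencode genes. The column that ignores strand was used. Reads over more than 1 gene are left out of it, and reads were not collapsed to molecules. Gene symbols and positions came from GENCODE M21. Of 53379 genes, 50604 matched by versioned identifier, 2670 without the version and 105 not at all.

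A minimum mean of 10 reads left 11551 genes, which were compared with edgeR 4.0.16 (TMM, estimateDisp, glmQLFit with legacy = FALSE, glmQLFTest, genotype alone) in R 4.3.3, adjusted by Benjamini-Hochberg over all genes tested, with a threshold of 0.05. SEs are the log2 fold change divided by the square root of F. DESeq2 1.42.0 and limma 3.58.1 (voom) were alternatives, and both scripts were tested on simulated data. CPM used the TMM factors, and log2 CPM a prior count of 2. Correlations used exact permutation in SciPy 1.17.1. Libraries were not duplicates: over 24 pairs within genotypes the chi-square per degree of freedom was at least 4.91.

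The 10 genes and the lists of other genes were chosen with earlier results of these data known. Named are the 10 genes, in each pathway list those past the threshold and the 2 with the highest level per kb, the 5 genes most like Fgf15 over 10 and over 7 libraries, the tested neighbours and Cdkn1c. Names outside this rule are marked or belong to the immediate early and marker lists. No protein sequence was used here.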

Additional observations from a re-analysis of the deposited data

Results flagged for a closer look

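Of 30 sets of 7 control values examined, 4 held a control far from the others, and chance flags about 1 in 20 such sets. Sulf2 was at 17.8 CPM in control replicate 7 and at no more than 7.46 CPM in the other controls. Egr1 was at 95.8 CPM in control replicate 1, with the next control at 63.6 CPM. The summed oligodendrocyte precursor and astrocyte markers stood at 91.8 CPM in control replicate 1 and at no more than 20.0 CPM in the others, and the 2 genes of that list that were tested did not pass the edgeR threshold. The summed diencephalon markers were at 247 CPM in control replicate 1, with the next control at 401 CPM. None of the 10 genes of the report had such a control. Control replicate 1, outlying in 3 of these sets, was also the control with the most Fgf15 reads, and without it Fgf15 had a log2 fold change of 3.39.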

How the results depend on the processing

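The numbers of genes called were recomputed under each alternative. All genes: 364 in the main test, 271 to 424 with single libraries left out, 961 with every gene that had a read and 206 with at least 10 reads in every library. Over all genes DESeq2 called 510 (300 higher and 210 lower) and limma-voom 297, beside 262 higher and 102 lower in the main test. With the replicate number as a block 213 genes were called, 1 of the 10 genes of the report (Fgf15) and 4 pathway genes. The numbers come from the titles alone, and deviations of same-numbered libraries correlated at 0.04, -0.10 and -0.21, so these libraries share only a number. Of the 10 genes, 2 were called in the main test and 1 to 2 with single libraries left out (1, Fgf15, without cKO replicate 1). DESeq2 called 1 (Etv4), limma-voom 1 (Fgf15), and the filter of 10 reads in every library left neither to test and called 0. Of the pathway genes 5 were called in the main test, 4 to 5 with single libraries left out, 8 by DESeq2, 11 with every gene that had a read and 3 with the stricter filter. Alternatives chosen after seeing the data were edgeR's legacy dispersions, which called 275 genes, 0 of the 10 and 5 pathway genes, and tests within each set of 5 libraries of like share outside genes. The set of smaller share called 67 genes, 0 of the 10 and 0 pathway genes, and the other 55 genes, 1 of the 10 (Fgf15) and 2 pathway genes; these use fewer samples. Apart from fewer genes or samples, the cause of the shifts was not tested. Of the immediate early genes 5 were called in the main test, 2 to 7 with single libraries left out, 9 with every gene that had a read, 3 with the replicate block, and 0 and 2 within the sets of smaller and larger share. The log2 fold changes of Fgf15, Etv4, the 5 called pathway genes and the 5 called immediate early genes kept their sign in every alternative that tested them. For Fgf15, Etv4, Dusp5 and Egr3 the filter fixed the sign, and Fgf15 was also chosen on it, so for these it is no support. Of 185 recomputed values of the 9 tested genes, 182 stayed within 1 SD between replicates. The 3 that did not came from the sets of 5 libraries (Fgf15 6.62, Fgfr2 -1.10 and Fgfr3 -0.49). Of 103 recomputed values of the 5 called pathway genes, 88 stayed past the threshold. The 36 pairs in controls gave 0 correlated pairs after adjustment under every alternative, with 0 to 2 at an unadjusted p under 0.05. Depth limits Fgf15, Etv4, Spry4 and Fgf21, which rest on few reads per library.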
